A study of Mus musculus with 10 samples.

Results

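Microglia are the resident phagocytes of the brain, and cultures of embryonic cortex carry some of them along with the neurons. The set described here is 40 genes of microglia identity and signalling, listed by symbol and looked up in the mRNA tables of cultured cortical cells given a control virus or a virus carrying Gata1. Of these 40 genes, 39 had a row among the 40904 genes with a symbol, each symbol with a single row, and 1, Cyba, was not analysed here. Values above 0 FPKM were present for 38 of them, and 34 reached a mean of 1 FPKM over both libraries. FPKM scales sequenced fragments to transcript length and library size, so levels of different genes can be set side by side.

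All groups were cortical neuron cultures from E14 embryos of ICR mice, collected at day 11 in vitro. The control group received AAV-Control and the other group AAV-Gata1, an adeno-associated virus carrying the gene of the blood cell transcription factor GATA1. The sources used here do not give the promoter that drives Gata1 in the virus, the number of embryos per culture or the share of non-neuronal cells. Each group had 1 mRNA library and 1 small RNA library out of the 10 samples of the series, and the 6 chromatin samples were not analysed here. With 1 library per group there is no replicate check, no difference below was tested, and each comparison is between 2 libraries. The mRNA libraries summed to 476398 FPKM with the control virus and 476848 FPKM with Gata1, and Gata1 itself was listed at 0 and at 2.07 FPKM.

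Microglia sense their surroundings through receptors for nucleotides, chemokines and complement fragments, and depend on CSF1R, the receptor of the growth factors CSF1 and IL-34, for survival. TREM2 binds lipids and signals through the adaptor TYROBP, whose ITAM motif recruits the kinase SYK, while P2RY12, TMEM119 and SIGLEC-H mark the resting state in the brain. In culture, microglia are known to lose much of that resting profile while keeping genes of phagocytosis.

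The 34 genes that reached this mean were all higher in the Gata1 library, where 45.3% of the 13740 genes compared at that level were higher. Differences were small: the median log2 ratio, taken throughout as log2((Gata1 + 1)/(control + 1)) of the FPKM, was 0.23, or 17.5% on that scale, beside -0.013 over all genes compared. At least 1.2-fold higher were 14 of the 34 (41.2%), against 3.29% of all genes compared, and none was 1.2-fold lower, against 3.98%. No gene of the set was 2-fold apart in either direction, where 0.233% of all genes were 2-fold higher and 0.284% 2-fold lower. The 34 include C5ar1, which stood at 0.839 FPKM in the control and reached the minimum only through the Gata1 value, and the nearest gene under the minimum was Tlr2, at a mean of 0.535 FPKM. Over the 38 genes above 0, 36 were higher and 2, P2ry12 and Tlr2, were lower. The members were chosen with earlier results of these data known. In bulk RNA, more cells of a type and more RNA of these genes per cell cannot be told apart.

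Summed over the set, the level was 501 FPKM with the control virus and 597 FPKM with Gata1, which is 0.105% and 0.125% of the library sums and a ratio of 1.19. The 6 genes with the highest levels (Tyrobp, Lyz2, Cd68, Trem2, Laptm5 and Mpeg1) made up 69.5% of it. In these same libraries 13 of 14 pan-neuronal markers were lower and 1 was higher, where 45.3% of all genes compared were higher. Their sum went from 1390 to 1346 FPKM, and the part of either difference in the other was not tested.

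**Figure D1:**
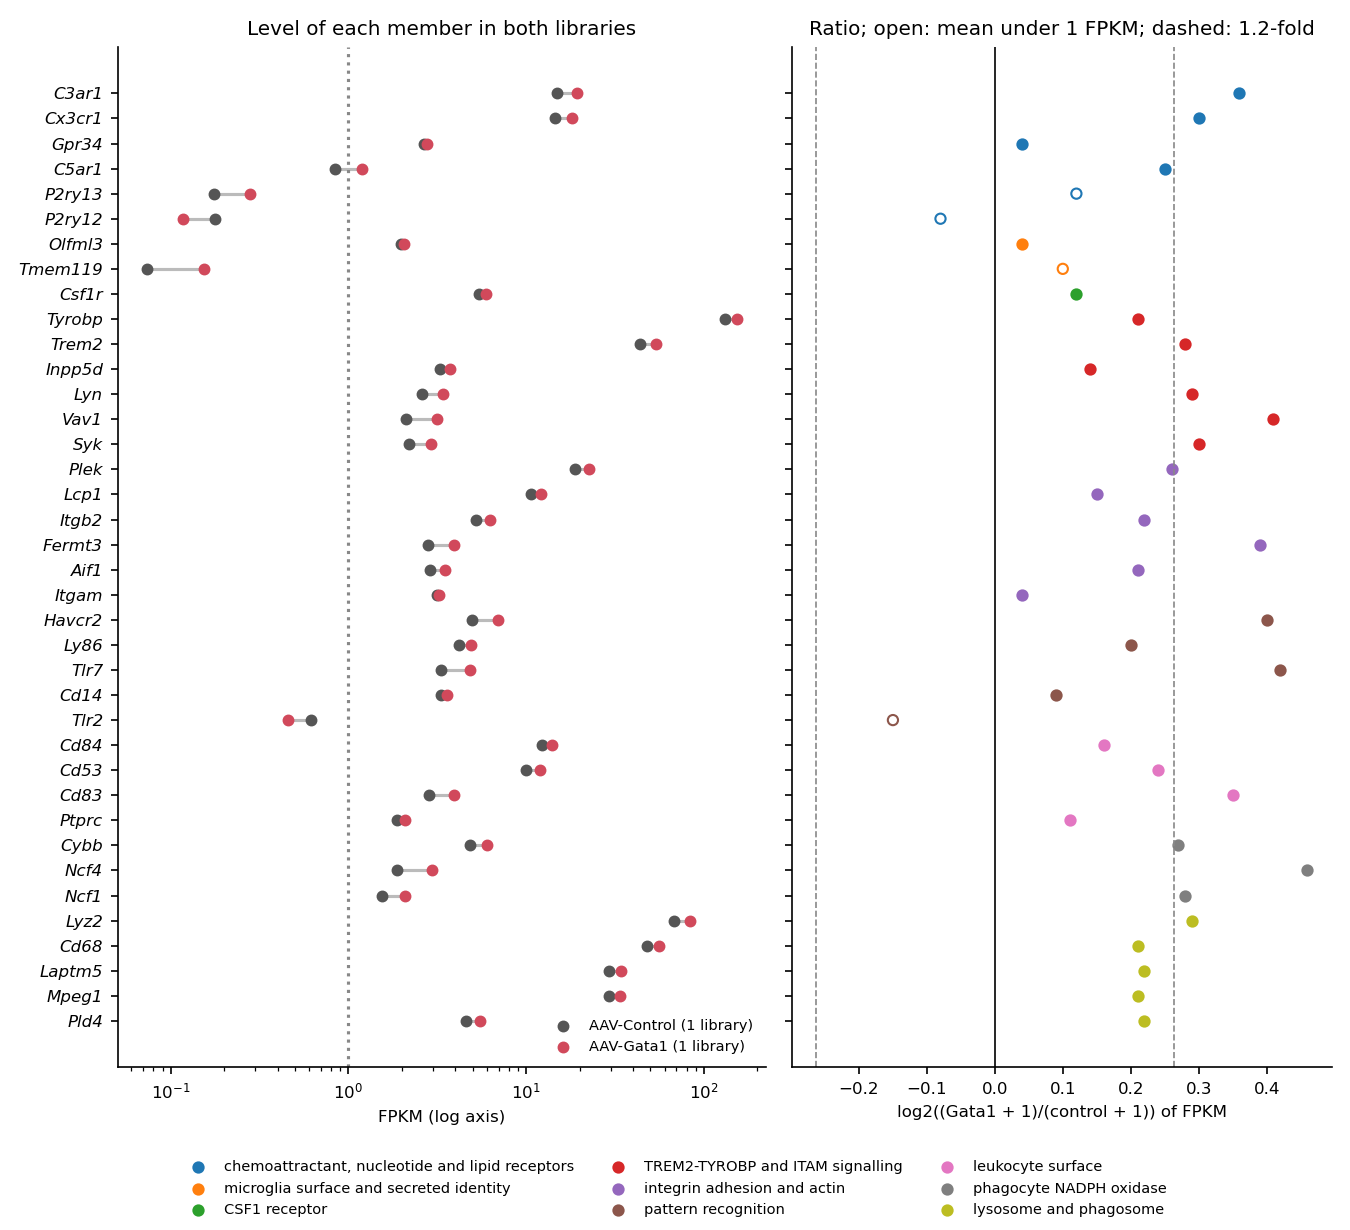
Left, FPKM of the 38 members above 0 in the control library (grey) and the Gata1 library (red), on a log axis with a dotted line at 1 FPKM; right, the log2 ratio of the FPKM plus 1, coloured by role, with open symbols for a mean under 1 FPKM and dashed lines at 1.2-fold. The filled symbols all lie to the right of 0, from 0.04 for Itgam, Olfml3 and Gpr34 to 0.46 for Ncf4.

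The label of the set was checked against markers of microglia: Cx3cr1, P2ry12, Tmem119, Csf1r, Aif1, Sall1 and Siglech. Cx3cr1, Csf1r and Aif1 were present in both libraries, at the levels given with their roles below. Sall1, which is also a gene of neural progenitors, stood at 22.1 and 21.8 FPKM. By contrast P2ry12, Tmem119 and Siglech were at or near 0 in both libraries. The data thus carry the phagocyte part of the set and hold little or no measured RNA of its resting-state markers, so the set is called microglia and phagocyte genes below.

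Among the receptors, Cx3cr1, whose product binds the neuronal chemokine fractalkine, stood at 14.6 FPKM with the control virus and 18.2 FPKM with Gata1 (log2 ratio 0.30). C3ar1, the receptor gene of the complement fragment C3a, stood at 14.9 and 19.4 FPKM (0.36). These were the most abundant receptors of this role, and both passed 1.2-fold. C5ar1, the C5a receptor gene, read 0.839 and 1.19 FPKM (0.25). Gpr34, which encodes a receptor for lysophosphatidylserine, hardly differed, at 2.67 and 2.77 FPKM (0.04). The ADP receptor gene P2ry12, which guides microglial processes to injured cells, was lower in the Gata1 library, at 0.178 and 0.117 FPKM, and its neighbour and relative P2ry13 stood at 0.176 and 0.278 FPKM. At such levels a handful of fragments can set the value, and the depth of these libraries is unknown. Both P2ry genes overlap Med12l, and Gpr34 overlaps Cask, in the RefSeq annotation; the sources used here do not say whether fragments were counted by strand, so reads of overlapping genes cannot be told apart.

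Surface and secreted identity genes were the weakest role. Tmem119, a membrane protein gene used to tell microglia from other macrophages, read 0.0738 FPKM with the control virus and 0.154 FPKM with Gata1. Siglech, a sialic acid-binding lectin gene, was listed at 0 in both. Olfml3, which encodes a secreted olfactomedin-like protein, was the only one of the role at 1 FPKM, at 1.97 and 2.05 FPKM (0.04). Csf1r, the growth factor receptor gene, stood at 5.42 and 5.95 FPKM, a log2 ratio of 0.12 that was the lowest of the 10 members between 5 and 20 FPKM.

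The TREM2 and TYROBP pathway held the most abundant transcript of the set. This was Tyrobp, the adaptor gene, which stood at 132 FPKM with the control virus and 153 FPKM with Gata1 (0.21), rank 504 by mean among the genes compared. Trem2 stood at 43.7 and 53.4 FPKM (0.28). Downstream of them the kinase gene Syk stood at 2.18 and 2.91 FPKM (0.30), and Lyn, a SRC-family kinase gene, at 2.60 and 3.40 FPKM (0.29). Vav1, which encodes a guanine nucleotide exchange factor, stood at 2.12 and 3.13 FPKM (0.41). Inpp5d, the gene of the phosphatase SHIP1 that opposes this signalling, had the lowest ratio of the role, at 3.29 and 3.73 FPKM (0.14). All 6 genes of the role were higher and 4 passed 1.2-fold, although the adaptor and the kinase genes lie far apart in level.

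Of the integrin and actin genes, Plek, the gene of the protein kinase C substrate pleckstrin, was the most abundant, at 18.7 and 22.5 FPKM (0.26), and Lcp1, the actin-bundling plastin of leukocytes, stood at 10.7 and 12.1 FPKM (0.15). The partners of complement receptor 3 differed by unequal amounts: Itgb2, the shared beta chain, stood at 5.22 and 6.27 FPKM (0.22), while Itgam, the alpha chain CD11b, stood at 3.14 and 3.25 FPKM (0.04), the lowest ratio of the 34. Fermt3, the gene of kindlin-3, which activates integrins, stood at 2.79 and 3.95 FPKM (0.39). Aif1, which encodes the actin-binding protein IBA1 used to stain microglia, stood at 2.89 and 3.50 FPKM (0.21). Only Fermt3, which overlaps Trpt1 in the annotation, passed 1.2-fold in this role with the pseudocount of 1; with 0.01 Plek, Aif1 and Itgb2 passed too.

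Of the pattern recognition genes all 4 compared were higher, while Tlr2, under the minimum mean, was lower. Tlr7, the endosomal receptor gene for single-stranded RNA, stood at 3.32 FPKM with the control virus and 4.80 FPKM with Gata1 (0.42). Tlr2, the surface receptor gene for bacterial lipoproteins, stood at 0.614 and 0.457 FPKM (-0.15) and was, with P2ry12, the other member with a lower value. Havcr2, which encodes the checkpoint receptor TIM-3, stood at 4.98 and 6.90 FPKM (0.40). The lipopolysaccharide co-receptor gene Cd14 was nearly level, at 3.31 and 3.58 FPKM (0.09), and Ly86, whose product pairs with CD180, stood at 4.17 and 4.92 FPKM (0.20).

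Surface genes shared by leukocytes were all higher. Ptprc, the gene of the phosphatase CD45, stood at 1.87 and 2.09 FPKM (0.11), and Cd53, a tetraspanin gene, at 9.99 and 12 FPKM (0.24). Cd84, a SLAM-family receptor gene, was the most abundant of them, at 12.3 and 13.9 FPKM (0.16), and Cd83, which encodes an immunoglobulin-family protein induced on activated cells, differed most, at 2.85 and 3.93 FPKM (0.35).

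The phagocyte NADPH oxidase makes superoxide from a membrane core and cytosolic subunits. Cybb, the catalytic core, stood at 4.80 FPKM with the control virus and 5.99 FPKM with Gata1 (0.27). The cytosolic subunit genes Ncf1 and Ncf4 stood at 1.54 and 2.09 FPKM (0.28) and at 1.87 and 2.94 FPKM (0.46). All 3 measured subunits of this role passed 1.2-fold, and Ncf4 had the highest ratio of the 34. Of 4 compared genes from a further oxidase list 3 were higher and 1 lower, where 45.3% of all genes compared were higher. Among them Nox1, another catalytic subunit, stood at 2.46 and 4.15 FPKM (0.58). The GTPase gene Rac2 stood at 4.67 and 5.61 FPKM (0.22) and Rac1 at 241 and 256 FPKM (0.09).

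Lysosome and phagosome genes were nearly uniform in ratio, and all but Pld4 were abundant. Lyz2, the lysozyme gene of myeloid cells, stood at 68.2 and 83.5 FPKM (0.29), and Cd68, a glycoprotein gene of phagocyte lysosomes, at 48.1 and 55.8 FPKM (0.21). Laptm5, a lysosomal membrane protein gene, stood at 29.2 and 34.0 FPKM (0.22), Mpeg1, the gene of the pore-forming perforin-2, at 29.1 and 33.8 FPKM (0.21), and Pld4, which encodes an exonuclease of the endolysosome, at 4.59 and 5.53 FPKM (0.22). Only Lyz2 of the 5 passed 1.2-fold with the pseudocount of 1, and Pld4 passed too with 0.01.

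The amount by which members differed varied less at higher levels. Between 1 and 5 FPKM the 17 members had log2 ratios from 0.04 to 0.46 (median 0.25), between 5 and 20 FPKM the 10 members ran from 0.12 to 0.40 (median 0.23), and at 20 FPKM and over the 7 members ran from 0.21 to 0.29 (median 0.22). Every member in these ranges was higher, where 47.5%, 44.4% and 44.8% of all genes were. The medians were close and the range narrowed, as it did for genes at large: the middle 90% of all genes ran from -0.36 to 0.34 in the lowest of these ranges of level and from -0.16 to 0.14 in the highest. At 20 FPKM and over, the share of all genes at least 1.2-fold higher was 0.965% of 4972, and Lyz2 and Trem2 were 2 of those 48 genes, at ranks 34 and 37 by ratio. Plek, Laptm5, Cd68, Mpeg1 and Tyrobp followed at ranks 52 to 95. Between 5 and 20 FPKM, where 2.67% of 5429 genes passed, Havcr2, C3ar1, Cx3cr1 and Cybb did, and between 1 and 5 FPKM, where 7.76% of 3339 passed, 8 of 17 did. The genes nearest to the 1.2-fold limit were Cybb, just inside at a log2 ratio of 0.269, and Plek, just outside at 0.260. The 14 members past it are 35% of the 40 listed and 3.1% of the 452 genes past it in all.

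**Figure D2:**
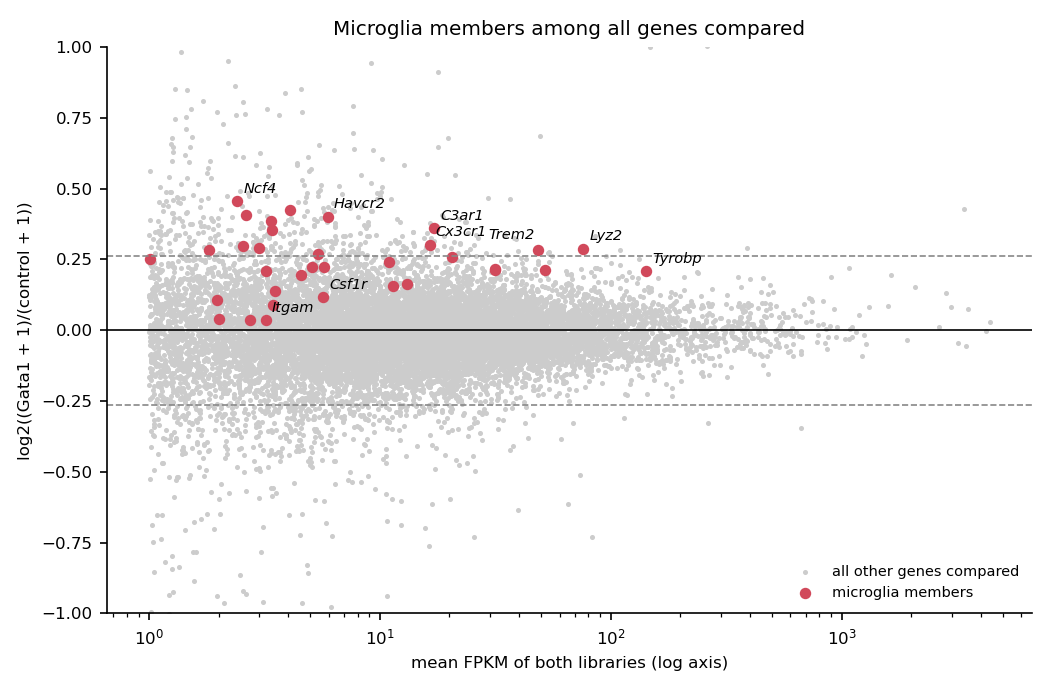
Log2 ratio of the FPKM plus 1 (Gata1 over control) against the mean FPKM of both libraries on a log axis, for the 34 members (red) and all other genes compared (grey), with dashed lines at 1.2-fold; 71 genes lie outside the plotted range. Members lie above 0 at every level, and those at 20 FPKM and over lie between 0.21 and 0.29.

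Further genes of the same cells were read from lists that did not enter the set. These lists, like the set, were chosen with earlier results of these data known. The counts of these lists stand beside 45.3% higher among all genes compared. Of 22 measured genes from a further list of microglia-enriched genes 16 were higher, at a median log2 ratio of 0.16. Fcrls, an Fc receptor-like gene of microglia, stood at 18.8 and 25 FPKM (0.39), the lysosomal protease gene Ctss at 22.8 and 29.1 FPKM (0.34), and C1qb, a chain of complement C1q, at 50.5 and 60.7 FPKM (0.26). Hpgds, the hematopoietic prostaglandin D synthase gene, went the other way, at 4.62 and 3.45 FPKM (-0.34). The other 5 lower genes of this list were Sall1, Cst3, Golm1, Ltc4s and Sparc, named after their values were seen; Cst3 and Sparc are also abundant in astrocytes. Of 19 further genes of ITAM and phagocyte signalling 13 were higher (median 0.08), led by Btk, a kinase gene, at 1.07 and 1.70 FPKM (0.39), and Card9, an adaptor gene, at 0.857 and 1.40 FPKM (0.37). Next in size were the adaptor gene Blnk, at 2.90 and 3.64 FPKM (0.25), and Rac2. Card9, Pik3ap1 and Dock2 stood under 1 FPKM in the control and reached the minimum mean only through the Gata1 value. Malt1, a lower gene of this list, reached it only through the control value (1.21 and 0.997 FPKM). Of 12 further genes of toll-like receptors and their adaptors 8 were higher (median 0.09); the endosomal receptor genes Tlr8 (1.1 and 1.81 FPKM, 0.42) and Tlr13 (5.63 and 7.27 FPKM, 0.32) were furthest apart, ahead of Tlr6 and Ly96, both at 0.19.

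Ligands and neuronal partners of these receptors did not share the direction: 5 of 11 were higher, at a median near 0. In this they stood near genes at large, of which 45.3% were higher. Cx3cl1, the fractalkine gene, stood at 28.7 and 25.6 FPKM (-0.16) and Cd200, a neuronal surface gene that restrains microglia, at 102 and 93.0 FPKM (-0.13). Tgfb1 and Tgfb2, growth factor genes of the TGF-beta family, stood at 4.21 and 4.84 FPKM (0.17) and at 18.3 and 20.6 FPKM (0.16). The ligand genes of CSF1R, named here after their values were seen, stood at 44.8 and 47.8 FPKM for Csf1 (0.09) and at 1.29 and 1.16 FPKM for Il34 (-0.08).

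Transcription factor genes of myeloid cells were higher in 7 of 10 cases (median 0.18), where 45.3% of all genes compared were higher. Spi1, which encodes PU.1, read 3.44 and 4.61 FPKM (0.34), Cebpb at 8.25 and 12.1 FPKM (0.51) and Bhlhe41, a transcriptional repressor gene, at 5.28 and 7.41 FPKM (0.42), while Batf3, a factor gene of dendritic cells, stood at 1.5 and 0.551 FPKM (-0.69).

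Markers of other blood and border cells were checked in both libraries. All 12 monocyte and granulocyte markers had a mean under 1 FPKM, with 6 listed at 0 in both libraries and sums of 1.25 and 1.94 FPKM; the neutrophil gene S100a8 read 0.204 and 1.04 FPKM. Of 12 lymphocyte markers 5 were listed at 0 in both, among them the T cell gene Cd3e, and only Lck, a kinase gene of T cells, passed 1 FPKM (1.26 and 2.35 FPKM). Markers of border macrophages summed to 23.4 and 27.3 FPKM: Mrc1, the mannose receptor gene, stood at 3.23 and 4.04 FPKM, Pf4 at 3.84 and 5.70, Ms4a7 at 2.19 and 2.87, Folr2 at 1.46 and 1.79 and the scavenger receptor gene Stab1 at 12.5 and 12.2 FPKM, while Lyve1, Cd163 and F13a1 were each under 0.1 FPKM. So 4 of 5 measured border macrophage markers were higher beside the set, at a median of 0.25. Among all genes compared 45.3% were higher, and the part of border macrophages in the set was not tested. Of 5 measured markers of mast cells, megakaryocytes and red cells 2 were higher, near the share of 45.3% among all genes compared. Itga2b, which encodes an integrin chain of platelets, read 1.39 and 3.34 FPKM (0.86), a larger difference than that of any gene of the set, and Hdc, the histidine decarboxylase gene, at 4.94 and 5.66 FPKM (0.16). Kit, Gp1bb and Hba-a1 were level or lower, with Kit at 6.8 and 6.51 FPKM (-0.06), and 5 genes of the list, among them the mast cell protease genes Cpa3, Mcpt4 and Tpsab1, were listed at 0 in both libraries. The part of these cells in the result was not tested.

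Markers of the other brain cells did not share the uniform direction of the set. Pan-neuronal markers had a median of -0.08, astrocyte markers one of -0.03 with 4 of 11 higher (2903 and 2879 FPKM in sum), and oligodendrocyte lineage markers one of -0.07 with 3 of 11 higher (319 and 303 FPKM in sum). All 4 measured pericyte and fibroblast markers were lower, at a median of -0.15, and 4 of 8 neural progenitor markers were higher. These counts stand beside 45.3% higher among all genes compared, and those of astrocyte and neural progenitor markers were near that share. The lowest ratio of any microglia or phagocyte gene compared, 0.04, was above the highest ratio of the 14 neuronal markers, 0.01.

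**Figure D3:**
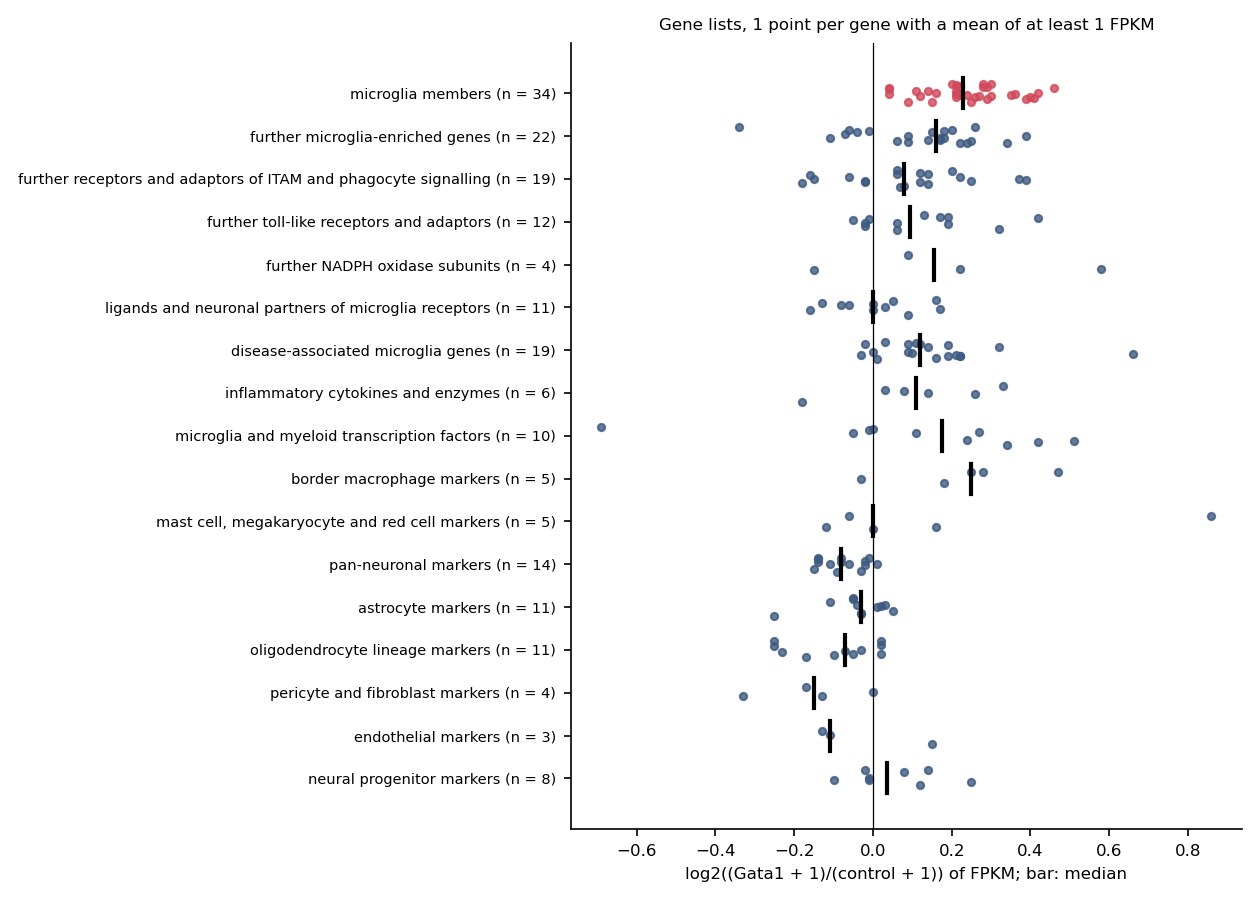
Log2 ratios of the FPKM plus 1 (Gata1 over control) for the microglia members (red) and for each further list with at least 3 genes compared (blue), 1 point per gene that reached the minimum mean and a black bar at the median. The members run from 0.04 to 0.46 around 0.23, and the neuronal, oligodendrocyte and pericyte lists have medians under 0.

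Promoters of the set were read to show what its members carry in sequence. In the RefSeq promoter table of build GRCm38.p6, 30 of the 40 genes matched, and the 250 bases before the start site were searched on both strands. PU.1 binds a purine-rich site whose core is often GAGGAA: 13 of 30 members (43.3%) held it in at least 1 window, against 25.9% of 27025 genes. The longer form GAGGAAGT, which contains that core, was present in 3 members (10%), Vav1, Havcr2 and Inpp5d, against 2.79% of all genes. The RUNX core TGTGGT was in 10 members (33.3%) against 15.9% of genes, and the GATA core GATAAG in 3 members (10%), C3ar1, Mpeg1 and Ptprc, against 7.60%. The composite of GGAA and GAAA with 2 bases between them, a site for PU.1 with IRF factors, was in none, against 2.68%, and the C/EBP palindrome TTGCGCAA in none, against 0.185%; CACGTG was in 2 members (6.67%) against 6.86%. A match describes letters in a window and is not a measured site. The sequences below show the 3 members with the longer PU.1 form, 2 abundant members with the core (Trem2 and Laptm5) and 1 abundant member with the GATA core (Mpeg1), 5′ to 3′ on the gene's strand and ending at the base before the start site, with PU.1 and GATA matches in capitals.
Vav1 (chr17:57278850-57279099, plus strand): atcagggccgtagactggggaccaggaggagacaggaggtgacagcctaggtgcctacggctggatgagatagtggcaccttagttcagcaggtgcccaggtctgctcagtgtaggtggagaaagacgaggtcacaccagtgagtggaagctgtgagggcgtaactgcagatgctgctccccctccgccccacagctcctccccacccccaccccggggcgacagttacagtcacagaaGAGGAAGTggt
Havcr2 (chr11:46454681-46454930, plus strand): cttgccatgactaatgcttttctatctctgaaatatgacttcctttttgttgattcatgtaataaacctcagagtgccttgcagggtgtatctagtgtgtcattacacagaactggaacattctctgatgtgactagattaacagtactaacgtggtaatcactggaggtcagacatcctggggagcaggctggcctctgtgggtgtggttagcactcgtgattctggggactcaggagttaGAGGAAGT
Inpp5d (chr1:87620062-87620311, plus strand): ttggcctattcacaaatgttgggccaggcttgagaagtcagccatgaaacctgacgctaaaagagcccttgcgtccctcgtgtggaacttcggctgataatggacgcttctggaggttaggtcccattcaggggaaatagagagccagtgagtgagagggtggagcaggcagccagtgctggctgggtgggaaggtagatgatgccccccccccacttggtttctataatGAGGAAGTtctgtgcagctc
Trem2 (chr17:48346151-48346400, plus strand): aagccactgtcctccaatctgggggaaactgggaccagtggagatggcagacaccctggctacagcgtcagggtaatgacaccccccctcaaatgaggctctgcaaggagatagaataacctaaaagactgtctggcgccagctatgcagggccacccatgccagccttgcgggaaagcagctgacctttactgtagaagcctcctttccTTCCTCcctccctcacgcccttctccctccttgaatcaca
Laptm5 (chr4:130913066-130913315, plus strand): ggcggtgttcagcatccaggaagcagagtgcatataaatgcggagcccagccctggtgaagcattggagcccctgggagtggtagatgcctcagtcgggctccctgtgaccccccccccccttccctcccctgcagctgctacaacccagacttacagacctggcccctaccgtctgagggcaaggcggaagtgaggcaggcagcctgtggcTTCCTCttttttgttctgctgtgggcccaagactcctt
Mpeg1 (chr19:12460520-12460769, plus strand): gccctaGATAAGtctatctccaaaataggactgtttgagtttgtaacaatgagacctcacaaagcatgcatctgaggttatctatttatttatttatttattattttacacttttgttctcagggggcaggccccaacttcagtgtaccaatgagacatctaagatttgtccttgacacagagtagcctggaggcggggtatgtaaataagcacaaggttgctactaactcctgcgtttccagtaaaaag

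In Vav1, Havcr2 and Inpp5d the longer form lies on the gene's strand and starts 11, 8 and 20 bases before the start site. Their log2 ratios were 0.41, 0.40 and 0.14, so both higher and lower ends of the set were among them. In Trem2 and Laptm5 the core GAGGAA is on the opposite strand and so reads TTCCTC in the printed sequence, at 40 and 38 bases before the start. Mpeg1, with the GATA core 244 bases before its start, had a ratio of 0.21, below the median of the set.

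The small RNA libraries give a second readout of myeloid cells, since a few microRNAs are made mainly or strongly by them. Their sequences are given from RefSeq (GRCm38.p6) with the seed, bases 2 to 8 that pair with targets, in capitals. The seeds are all different except that of miR-221-3p and miR-222-3p, which is shared.
miR-142a-5p: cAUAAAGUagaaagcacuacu
miR-142a-3p: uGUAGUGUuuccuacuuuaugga
miR-223-3p: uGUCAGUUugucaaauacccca
miR-146a-5p: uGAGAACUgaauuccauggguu
miR-155-5p: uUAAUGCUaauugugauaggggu
miR-342-3p: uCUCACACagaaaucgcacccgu
miR-21a-5p: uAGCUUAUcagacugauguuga
miR-221-3p: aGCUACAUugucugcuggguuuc
miR-222-3p: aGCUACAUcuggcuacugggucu

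These microRNAs did not share the direction of the mRNA set. Of 9 myeloid-expressed names with at least 20 reads over both libraries, 4 had a higher and 5 a lower CPM (reads scaled to a common library total) in the Gata1 library, where 55.8% of the 563 microRNAs compared were higher. The microRNA most restricted to blood cells, miR-142a-5p, stood at 2.56 CPM (40 reads) in the control and 1.74 CPM (22 reads) in the Gata1 library, a ratio of 0.680 with a 95% counting interval of 0.385 to 1.17 (exact Clopper-Pearson). Its partner arm miR-142a-3p had 0 reads in the control, which allows up to 0.192 CPM, and 5 in the Gata1 library. The granulocyte and macrophage microRNA miR-223-3p had 14 and 13 reads (ratio 1.15, interval 0.497 to 2.63). Both intervals hold 1, and they are wide beside the median FPKM ratio of the mRNA set, 1.21: that of miR-223-3p holds this value and that of miR-142a-5p ends at 1.17. CPM and FPKM are scaled separately, and whether these ratios should match the mRNA ratio was not tested.

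More reads were at hand for microRNAs that other cells express too. The inflammation-induced miR-146a-5p stood at 59.5 and 62.6 CPM (ratio 1.05, interval 0.956 to 1.16), and miR-155-5p, induced in activated macrophages, at 23.7 and 19.7 CPM (0.830, interval 0.704 to 0.977). Both intervals end below 1.21, the median FPKM ratio of the mRNA set. Other cells express both microRNAs and CPM is scaled apart from FPKM, so this does not test the mRNA difference. The more abundant miR-342-3p stood at 542 and 467 CPM (0.861, interval 0.833 to 0.890), and its partner miR-342-5p stood at 55.5 and 50.4 CPM (0.907, interval 0.818 to 1.01). The ratios of miR-21a-5p (0.971), miR-222-3p (1.02) and miR-221-3p (1.06) were within 10% of 1. For comparison the neuronal miR-124-3p stood at 2667 and 3116 CPM (1.17, interval 1.15 to 1.18), miR-9-5p had a ratio of 0.949 and miR-128-3p one of 1.07, and the oligodendrocyte miR-219a-2-3p one of 0.926. The intervals cover counting error of these 2 libraries only: PCR copies of a molecule are counted as separate reads.

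**Figure D4:**
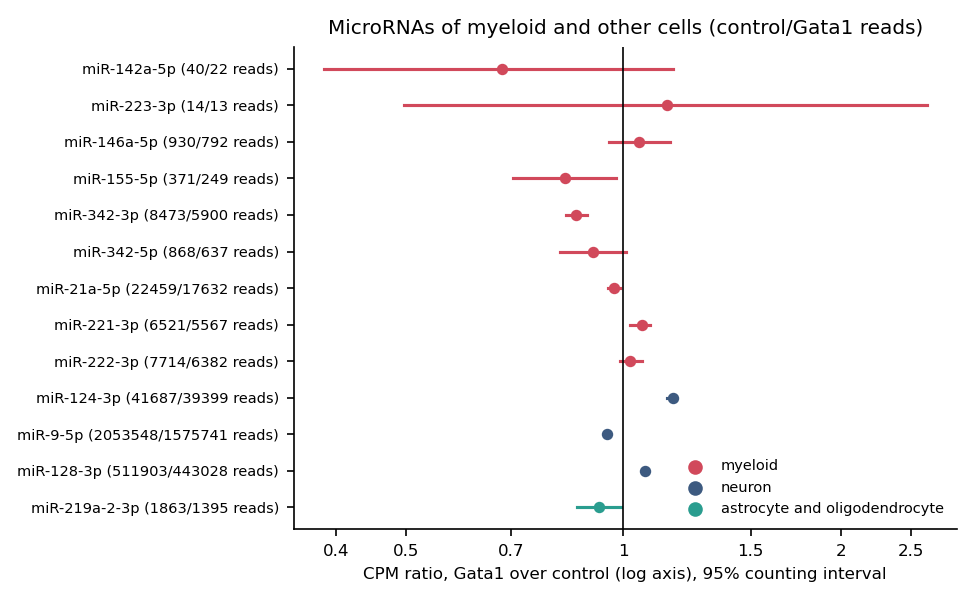
CPM ratio (Gata1 over control, log axis) of each listed microRNA with at least 20 reads, with its 95% counting interval as a line and the reads in control and Gata1 beside the name; red marks myeloid-expressed, blue neuronal and green oligodendrocyte names. Of the red points 4 lie above 1 and 5 below, and the widest intervals belong to miR-142a-5p and miR-223-3p.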

How the data were processed

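The authors deposited mRNA values as FPKM, per the file headers, and small RNA values as normalized counts, which are CPM, as the equal column sums show. TopHat2 2.1.1, Cufflinks 2.1.1, Cuffdiff 2.1.1, Bowtie 1.1.2, HTSeq 0.6.1p1 and edgeR 3.10.2 are named without a role, with builds mm9 and mm10, per the submitters' processing notes. The mRNA kit was stranded and paired-end, per the labels' protocols. Depth is unknown for the mRNA libraries.

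Rows without a symbol (6 rows, 0.0122% and 0.0113% of the FPKM) were left out, and the highest-mean row per symbol was used. Log2 ratios used a pseudocount of 1, which understates differences of low genes, and a minimum mean of 1 FPKM. Direction, 1.2-fold and 2-fold were rules of size, without a test. Whole reads were recovered from the deposited CPM: 100% of values above 0 were multiples of 1 read's worth (tolerance 0.0055 CPM), giving 15632553 and 12644419 reads over all rows; many reads are listed again under other precursors, and 1 row per name holds 7741365 and 6314572 reads. Ratios with at least 20 reads have exact conditional binomial 95% intervals, and a count of 0 allows up to 3 reads. Overlaps, promoters and microRNA sequences came from RefSeq tables (GRCm38.p6), and the overlap of gene bodies ignored strand.

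All 40 members are named; of other lists, the 4 genes furthest apart, or all of a list with 6 or fewer compared, and any gene of the blood and border cell lists. Members and lists were chosen with earlier results of these data known. Alternatives were other pseudocounts, minimum means, scalings and rows, and genes that overlap no other. Single results on some listed genes are not reported here. The counting was tested on simulated data. Python 3.11.15, pandas 2.3.3 and SciPy 1.17.1 were used.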

Additional observations from a re-analysis of the deposited data

How the results depend on the processing

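All members compared stayed higher in the Gata1 library under each alternative, apart from P2ry12 and Tlr2, which enter when no minimum mean is set (36 of 38 higher). The count past 1.2-fold was 14 as reported, 18 with a pseudocount of 0.1 (C5ar1, Plek, Aif1 and Pld4 added), 20 with 0.01 (Itgb2 and Cd53 as well), 16 with ratios centred on the median of all genes, and 14 with equal upper quartiles, summed rows or no minimum mean. With a minimum mean of 5 FPKM, 17 of 17 were higher and 6 passed 1.2-fold, and among the 23 members that overlap no other gene, 23 were higher and 9 passed; both settings compare fewer genes. The median log2 ratio stayed between 0.22 and 0.27 over all of these, and the mean was 0.24. Low genes moved more: C5ar1 went from 0.25 to 0.46 and 0.50 with pseudocounts of 0.1 and 0.01, and Ncf1 from 0.28 to 0.44 with 0.01. Centring the microRNA ratios on their median turned miR-222-3p from above 1 to 0.987. No paired analysis was possible because each group has 1 library. The unknown depth of the mRNA libraries limits statements on genes under 1 FPKM, and the few reads of miR-142a and miR-223 limit the microRNA readout.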

Other observations

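Activation programs of microglia were read beside the set, from lists that overlap it in no gene. These lists too were chosen with earlier results of these data known. Genes that microglia raise around plaques and in degeneration ranged widely in level. The lowest was Cst7, at 0.0961 and 0.161 FPKM, and the highest Apoe, at 4345 and 4432 FPKM. Of 19 measured, 16 were higher in the Gata1 library, at a median log2 ratio of 0.12, beside 45.3% of all genes compared. Ccl6, a chemokine gene, stood at 1.47 and 2.91 FPKM (0.66), Lilrb4, an inhibitory receptor gene, at 15.2 and 19.1 FPKM (0.32), Ctsd, the cathepsin D gene, at 990 and 1154 FPKM (0.22) and Lgals3, the galectin-3 gene, at 68.5 and 79.7 FPKM (0.22). Many of these genes are also expressed by astrocytes and neurons, and Ctsd is a general lysosomal gene.

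Inflammatory cytokine genes were mostly under 1 FPKM, with 6 of 19 measured. The chemokine genes Ccl3 and Ccl4 stood at 10.9 and 14 FPKM (0.33) and at 6.05 and 7.45 FPKM (0.26), Ccl2 at 0.965 and 1.16 FPKM (0.14), Cxcl10 at 3.09 and 3.34 FPKM (0.08) and Casp1 at 2.42 and 2.49 FPKM (0.03). Il18 was lower, at 14.5 and 12.7 FPKM (-0.18). The classical activation genes Il1b, Il6, Tnf and Nos2, named after their values were seen, were each under 0.5 FPKM in both libraries.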
